A study of Mus musculus with 6 samples.

Results

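The autophagy and lysosome genes of mouse CD4-CD8- double-negative T (DNT) cells were followed here across 3 control and 3 IL-33 libraries. They are 36 genes chosen by symbol, matched to the Ensembl identifiers of the count table, and all 36 were found among the 26128 genes listed and passed the filter on low counts that left 14671 genes to test. The cells came from adult wild-type C57BL/6 mice, from spleen in the labels and from spleen and lymph nodes in the methods. CD4+CD25- T cells were converted to DNT cells in vitro with mature dendritic cells of DBA/2 mice and IL-2, then sorted as CD3+NK1.1-CD4-CD8- cells, and both groups were cultured with anti-CD3/CD28 beads for 48 h, so that every library came from activated cells. The IL33 group also received IL-33 at 50 ng/ml and the control group did not. The comparison asks which transcripts of the degradation system differ with the cytokine.

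Macroautophagy encloses portions of cytoplasm in a double membrane, which fuses with the lysosome, and lysosomal hydrolases then break the contents down. A kinase complex and a lipid kinase complex start the process, a ubiquitin-like conjugation system attaches Atg8-family proteins to the growing membrane, and receptors that bind both the cargo and the Atg8 proteins give it selectivity. In T cells the pathway can remove mitochondria and other organelles, and the lysosomal compartment also supplies the granules of cytotoxic cells. The files hold RNA abundance alone, and neither autophagic flux nor protein was measured in them.

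The libraries held 20256342 to 22336050 counts, and a count of 3 stood for 0.134 to 0.148 CPM, the count scaled to a common library size. Transcripts of the 12 genes of the T cell list summed to 2900 to 3080 CPM in control and 2940 to 3060 CPM in IL-33 libraries, with Cd5 low at means of 6.68 and 4.97 CPM. Within this sum Cd3g was higher with IL-33 and Lat, Lck, Cd2 and Cd5 were lower at the threshold given below. Their log2 fold changes were 0.13, -0.26, -0.17, -0.16 and -0.43. Cd4 stayed at or under 1.08 CPM. Cd8a, in contrast with the CD8- sort, was read at 535 to 561 CPM in control and 393 to 410 CPM in IL-33 libraries, while its partner Cd8b1 rose from 8.12 to 11.4 CPM in control to 14 to 18.1 CPM in IL-33 libraries. Klrb1c, the gene of NK1.1, which the sort also excluded, was read at 30.5 to 35 CPM in control and 24.5 to 26.8 CPM in IL-33 libraries. Dendritic and myeloid markers summed to 113 to 121 CPM in control and 113 to 120 CPM in IL-33 libraries. Of the 14 found, 7 were under 1 CPM everywhere, among them Lyz2, Csf1r, Adgre1 and Flt3. Others were read, and the flat sum held changes both ways. From control to IL-33 means, Itgax fell from 54.6 to 26 CPM and Cd74 from 5.66 to 3.78 CPM. Fcgr3 rose from 18.6 to 39.5 CPM and H2-Ab1 from 24.8 to 30.3 CPM, and Xcr1 was at 11.5 and 12.4 CPM. Mast cell and basophil markers summed to 39.4 to 43.3 CPM in control and 28.1 to 33.2 CPM in IL-33 libraries, B cell markers to 4.79 to 5.7 and 5.53 to 6.44 CPM, and erythroid markers to 1.53 to 2.03 and 4.23 to 5.4 CPM. Most of the mast cell and basophil sum came from Cma1 (means of 22 and 17.9 CPM, groups overlapping) and Cpa3 (10.9 and 7.1 CPM). Mcpt8 was at 5.81 and 4.32 CPM, Hdc at 1.3 and 1.51 CPM, and Tpsb2, Fcer1a, Ms4a2 and Gata2 were under 1 CPM everywhere. The erythroid sum followed Alas2 alone (0.924 and 4.42 CPM on average), the one gene of that list that was tested, while Hba-a1 was at 0.394 and 0.122 CPM. The mitochondrial share of counts was 1.86 to 1.95% in control and 2.09 to 2.12% in IL-33 libraries, and the part of these differences in the results below was not tested. In RNA from a bulk of cells, fewer cells of a kind and less RNA per cell cannot be told apart.

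With IL-33, 6 of the 36 genes were higher and 6 were lower, and none changed by as much as 1.5-fold. Bnip3l, a receptor for the removal of mitochondria, rose by 27.9% and was the member with the smallest p. The cargo receptor Sqstm1 and the conjugation genes Atg16l2 and Atg12 rose with it, as did the lysosomal proteases Ctsz and Ctsb. The regulator Tfe3, the receptor Optn, the conjugation gene Atg16l1, the lysosomal membrane protein Lamp1, the saposin precursor Psap and the hexosaminidase subunit Hexa fell. The genes that start autophagy, the membrane growth genes and the 5 Atg8-family genes held no called member, against 27.5% called of all genes tested.

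These calls rest on edgeR's quasi-likelihood test at a Benjamini-Hochberg adjusted p under 0.05 over all 14671 genes, and a gene past it is said to be called, higher or lower. The share of called members was 33.3%, against 27.5% of all genes tested. The members higher made up 16.7%, against 13.6% of all genes, and the members lower made up 16.7%, against 13.9%. An adjusted p under 0.05 together with a fold change of at least 1.5 was met by 0 members and by 4.87% of all genes. The CPM ranges of the 2 groups did not overlap in 15 members (41.7%), against 38.9% of all genes. Among the 11166 tested genes within the members' range of mean level (2.48 to 804 CPM), 32.9% were called and 44.2% did not overlap. The members' shares of calls and of non-overlap lie near these backgrounds, so the number of called members is not a result about the set. The counts of calls by role, here and below, rest on still fewer genes, and none is read as a trait of a role. The median log2 fold change was 0.012 over the members and -0.001 over all genes, and the median absolute log2 fold change was 0.075 over the members and 0.152 over all genes. The medians of all genes and the 4.87% also cover genes outside the members' range of level and were not matched for it. The labels do not say whether replicates were separate mice or cultures, and the p-values measure only the spread between these libraries.

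**Figure D1:**
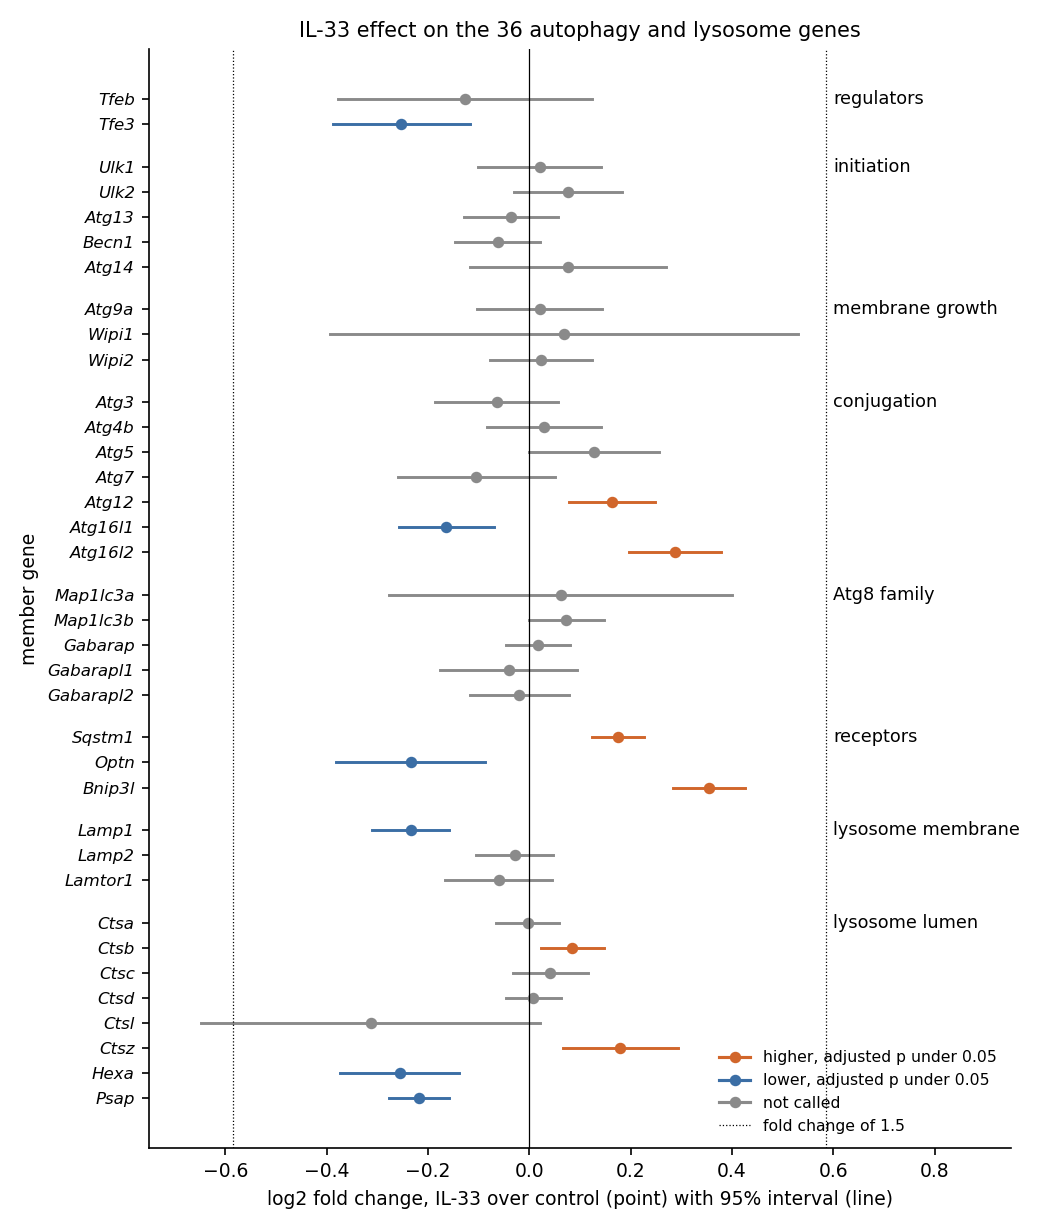
Log2 fold change of IL-33 over control for each of the 36 genes, grouped by role, with points for the estimate and lines for the 95% interval of edgeR's model (3 libraries per group), orange for called higher, blue for called lower and grey for not called. All points lie between -0.31 and 0.35, inside the dotted lines at a fold change of 1.5. All 3 receptors are called, against 30% of 10 further cargo receptors, and no initiation, membrane growth or Atg8-family gene is. Of all genes tested 27.5% are called, and these small counts are not a trait of a role.

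As sequence context for the regulators described next, promoter windows from RefSeq (GRCm38.p6, 250 bases before to 50 bases after the transcription start) were searched for CACGTG. This E-box is bound by Tfeb and Tfe3 and also by other basic helix-loop-helix factors such as those of the USF and MYC families. Its extension TCACGTGA is the core of the element described for lysosomal genes as CLEAR, and each TCACGTGA holds one CACGTG. Both words read the same on either strand. A window was found for 30 of the 36 members (Atg12, Atg16l1, Becn1, Bnip3l, Ctsb and Map1lc3a were not matched), and 9 of the 30 (30.0%) held CACGTG in at least 1 of their windows, against 11.6% of the 10069 tested genes with a window, counted in the same way. The longer TCACGTGA was found in 3 of the 30 (10%), against 2.23% of those tested genes. Counted by window, with some genes having several, 7.15% of all 32851 windows held CACGTG and 0.974% held TCACGTGA. The stretches around the E-boxes upstream of the start are shown for 4 members, Lamp1 because it is the only called gene among the 9 and has the most copies, and Atg3, Atg5 and Lamtor1 as uncalled genes of the same pathway. They run 5′ to 3′ on the gene's strand with CACGTG in capitals, and Lamp1 (chr8:13159080-13159160, plus strand) holds 4 copies, Atg3 (chr16:45158715-45158783, plus strand) 2 copies, Atg5 (chr10:44268305-44268338, plus strand) 1 copy and Lamtor1 (chr7:101905749-101905794, plus strand) 1 copy.
Lamp1: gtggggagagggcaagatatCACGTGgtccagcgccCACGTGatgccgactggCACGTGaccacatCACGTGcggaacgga
Atg3: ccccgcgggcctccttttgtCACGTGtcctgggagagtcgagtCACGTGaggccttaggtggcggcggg
Atg5: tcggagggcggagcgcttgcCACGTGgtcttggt
Lamtor1: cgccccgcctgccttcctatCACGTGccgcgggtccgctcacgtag

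In Atg3 the second copy, 71 to 66 bases before the start, is part of a TCACGTGA. The other 2 members with TCACGTGA were Ctsa, with one copy on each side of the start, and Ctsd, with one copy 98 to 93 bases before it. Ctsl, Atg7 and Atg14 held 1 CACGTG each. Of these 9 genes only Lamp1 was called, and it was lower with IL-33. The called members Atg12, Atg16l1, Bnip3l and Ctsb had no window and could not enter this count. Over all tested genes with a window, 29.8% of the 1166 genes with CACGTG and 30.8% of the 8903 genes without it were called, and 16.6% and 15.4% were lower. For TCACGTGA, 32.4% of the 225 genes with it and 30.6% of the 9844 genes without it were called, and 22.7% and 15.4% were lower. These differences were not tested.

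**Figure D2:**
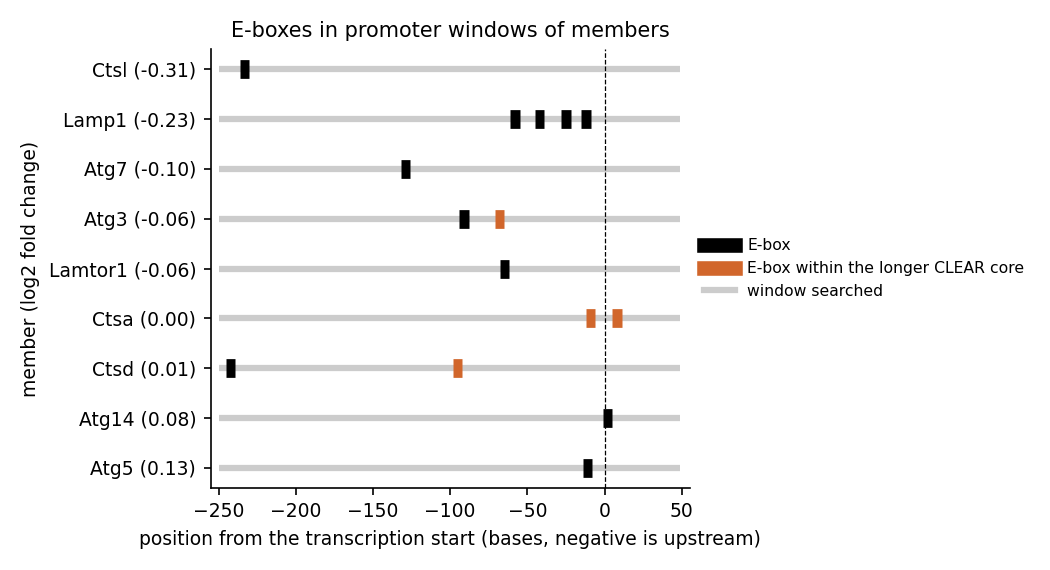
Position of each E-box in the promoter window of the 9 members that hold one, in bases from the transcription start, ordered by the log2 fold change with IL-33 given beside the name, with orange marking an E-box inside the longer CLEAR core. The 4 copies of Lamp1 lie within the 61 bases before its start, and the genes with the longer core (Ctsa, Ctsd and Atg3) have log2 fold changes between -0.06 and 0.01.

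Tfeb and Tfe3 are related transcription factors that stay in the cytoplasm while the kinase mTOR is active at the lysosome and otherwise enter the nucleus to activate lysosome and autophagy genes. Tfe3 was read at 36.7, 42.3 and 38.1 CPM in the control libraries and at 31.6, 30.1 and 36.4 CPM in the IL-33 libraries. Each IL-33 library lay below each control library, although the highest of the first and the lowest of the second nearly met. Its log2 fold change was -0.25 (SE 0.0679, Benjamini-Hochberg adjusted p = 0.00222 in edgeR's quasi-likelihood fit), and without control replicate 2 the adjusted p was 0.0549.

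Tfeb was read at 9.8, 9.94 and 8.49 CPM in control and at 8.51, 8.73 and 8.6 CPM in IL-33 libraries, and these ranges overlapped. Its log2 fold change of -0.13 (95% interval -0.378 to 0.124) was not called, and the interval includes the estimate for Tfe3. Per kb of exon, the level of Tfe3 was 4.22 ± 0.312 CPM per kb (SD, n = 3) in control, and that of Tfeb was 1.66 ± 0.141 CPM per kb. Another factor of this family, Mitf, is not a member and was read at 1.32 ± 0.0949 CPM in control and 1.18 ± 0.165 CPM in IL-33 libraries (SD, n = 3).

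Ulk1 and Ulk2 are the kinases of the initiation complex and Atg13 is their regulatory partner, while Becn1 and Atg14 belong to the lipid kinase complex that marks the site of membrane growth. All 5 were measured and 0 were called, with log2 fold changes between -0.06 and 0.08. Becn1 was at 90 ± 2.5 CPM in control and 86.1 ± 2.06 CPM in IL-33 libraries (SD, n = 3), and its 95% interval ran from -0.146 to 0.021 on the log2 scale. The 5 genes together came to 267 to 272 CPM in control and 266 to 272 CPM in IL-33 libraries, so that the groups overlapped fully.

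The membrane growth genes were Atg9a, whose protein carries lipid in vesicles, and Wipi1 and Wipi2, which bind the lipid made by the Becn1 complex. None was called, and their log2 fold changes were between 0.02 and 0.07. Wipi2 stood above Wipi1 per length (5.95 against 0.561 CPM per kb over the 6 libraries) and was at 62.2 ± 4.38 CPM in control and 63.2 ± 2.12 CPM in IL-33 libraries (SD, n = 3), whereas Wipi1 had only 42 to 61 counts in a library. At that depth the interval of Wipi1 ran from -0.393 to 0.531, which leaves a change of the size seen in Bnip3l undetectable.

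Conjugation of the Atg8 proteins uses Atg7 as the activating and Atg3 as the transferring enzyme, Atg4b as the processing protease, and a complex of Atg5, Atg12 and Atg16l1 that directs the reaction to the membrane. Of these 7 genes 2 were higher, 1 was lower and 4 were not called. Atg16l2, a relative of Atg16l1 whose protein also binds Atg5, was read at 71, 63.5 and 68 CPM in control and at 79.2, 88 and 80.2 CPM in IL-33 libraries. All IL-33 libraries lay above all control libraries. The mean rose from 67.5 ± 3.78 to 82.5 ± 4.84 CPM (SD, n = 3), a log2 fold change of 0.29 (SE 0.0461, Benjamini-Hochberg adjusted p = 2.3e-07 in edgeR's quasi-likelihood fit). The gene lies at chr7:101263034-101302251 on the minus strand (GRCm38).

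Atg12, whose product is the ubiquitin-like protein joined to Atg5, was read at 75.9, 78.2 and 75.8 CPM in control and at 83.3, 88.2 and 85.9 CPM in IL-33 libraries. The groups stood apart, with a log2 fold change of 0.16 (SE 0.0429, adjusted p = 0.00174). Atg16l1 went the other way, from 71.2 ± 1.98 to 63.6 ± 2.01 CPM (SD, n = 3) and a log2 fold change of -0.16 (adjusted p = 0.00477, and 0.0555 without IL-33 replicate 1). Atg5 was at 35.7 ± 1.79 CPM in control and 39 ± 1.55 CPM in IL-33 libraries, and although its groups did not overlap it was not called (adjusted p = 0.136). Atg3, Atg4b and Atg7 overlapped between groups, with log2 fold changes of -0.06, 0.03 and -0.10.

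Atg16l1 and Atg16l2 moved in opposite directions within the same libraries, and their ratio was formed after these values had been seen. The counts of Atg16l2 per count of Atg16l1 were 1.03, 0.873 and 0.945 in control and 1.29, 1.38 and 1.23 in IL-33 libraries. The lowest IL-33 ratio exceeded the highest control ratio, and the means were 0.95 ± 0.0784 and 1.3 ± 0.0781 (SD, n = 3). An exact permutation test of this ratio (two-sided, 3 against 3 libraries) gave p = 0.1, the smallest that this design allows. Each gene had already separated the groups, in opposite directions, so the separation of the ratio and this p were fixed in advance. The ratio of counts is not a ratio of molecules, since the lengths of the genes were not divided out.

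The Atg8 family comprises the small proteins that are coupled to lipid on the autophagic membrane, where they hold cargo receptors. Gabarap was read at 268, 283 and 265 CPM in control and at 273, 283 and 270 CPM in IL-33 libraries. Map1lc3b, the gene of the most used marker of autophagosomes, was read at 145, 152 and 154 CPM in control and at 160, 159 and 156 CPM in IL-33 libraries. The first overlapped between groups and the second did not, but the change of Map1lc3b was small, with a log2 fold change of 0.07 (95% interval 0 to 0.147), and was not called (adjusted p = 0.136).

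Gabarapl2 was read at 61.7, 66.3 and 63.2 CPM in control and at 61.5, 63.9 and 63.2 CPM in IL-33 libraries. Gabarapl1 was read at 31.6, 31.4 and 32.6 CPM in control and at 30.1, 30.8 and 32.1 CPM in IL-33 libraries. Map1lc3a was the lowest, at 4.05, 5.27 and 4.38 CPM in control and 4.6, 4.86 and 4.82 CPM in IL-33 libraries. The groups overlapped in all 3 genes, and the 95% intervals were -0.117 to 0.078 for Gabarapl2, -0.177 to 0.095 for Gabarapl1 and -0.276 to 0.4 for Map1lc3a on the log2 scale. Per kb of exon, Gabarap stood at 148 CPM per kb over the 6 libraries, Gabarapl2 at 27.2, Map1lc3b at 20.5, Gabarapl1 at 15.6 and Map1lc3a at 3.95.

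All 3 cargo receptors among the members were called, 2 higher and 1 lower. Of all genes tested 27.5% were called, and of the 10 further cargo receptors tested 30%, so this small count is not a trait of the role. Bnip3l, also known as Nix, sits in the outer mitochondrial membrane and ties mitochondria to Atg8 proteins. It was read at 167, 161 and 179 CPM in control and at 214, 221 and 214 CPM in IL-33 libraries. No IL-33 library came near a control library. The mean rose from 169 ± 9.2 to 216 ± 3.79 CPM (SD, n = 3), with a log2 fold change of 0.35 (SE 0.0356, Benjamini-Hochberg adjusted p = 8.2e-15 in edgeR's quasi-likelihood fit). Bnip3l lies at chr14:66985239-67008877 on the minus strand (GRCm38).

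Sqstm1 encodes the receptor that links ubiquitin-marked cargo to Atg8 proteins and is itself degraded by autophagy. Its levels were 729, 763 and 775 CPM in control and 883, 839 and 837 CPM in IL-33 libraries, more reads than any other member gave. The groups stood apart, and the mean rose from 756 ± 24.1 to 853 ± 25.7 CPM (SD, n = 3), a log2 fold change of 0.17 (SE 0.0258, adjusted p = 2.1e-08). Optn, a ubiquitin-binding receptor for mitochondria and bacteria, fell from 28.9 ± 0.806 to 24.6 ± 1.37 CPM (SD, n = 3), a log2 fold change of -0.23 (adjusted p = 0.0109, and 0.0867 without IL-33 replicate 2). Summed over the 3 receptors, the control libraries held 925, 952 and 984 CPM and the IL-33 libraries 1120, 1080 and 1080 CPM, most of it from Sqstm1.

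**Figure D3:**
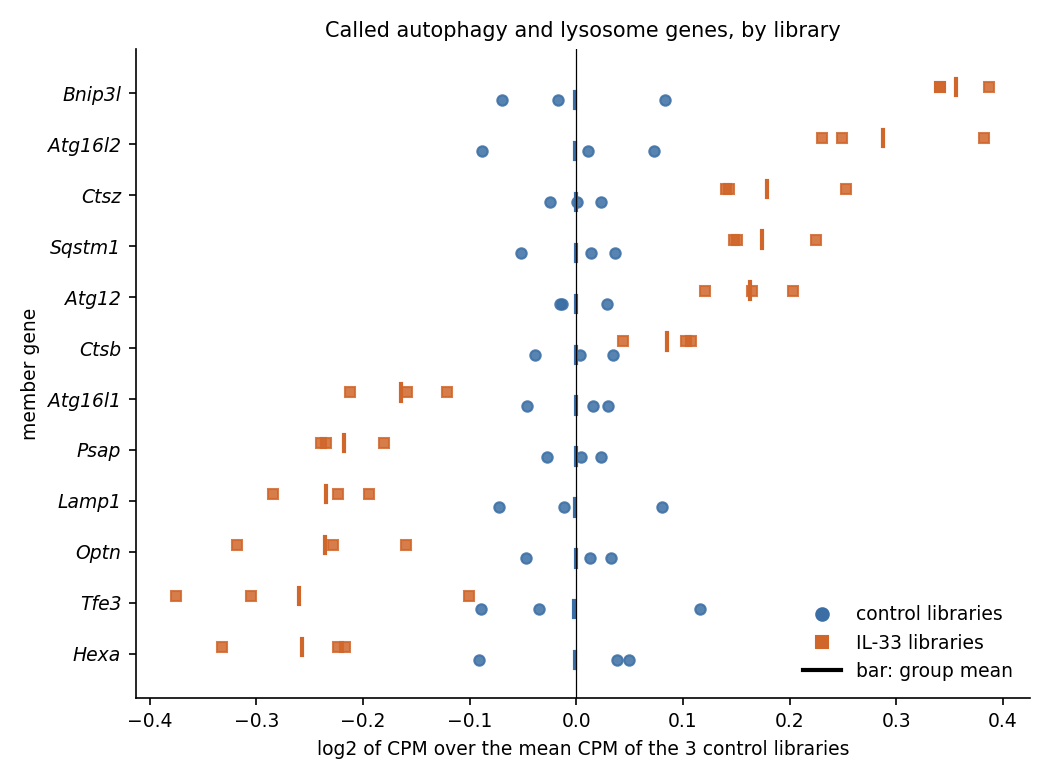
CPM of the 12 called members in each library, as log2 of the value over the mean of the 3 control libraries, with circles for control, squares for IL-33 and bars for group means. In all 12 genes the 3 IL-33 libraries lie on one side of the 3 control libraries, as in 38.9% of all genes tested. These genes were picked by their p in the same libraries, so the separation is no further support for the calls. It is widest in Bnip3l, and the gap is narrowest in Tfe3 and Ctsb.

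Lamp1 and Lamp2 are the heavily glycosylated proteins that line the inner face of the lysosomal membrane, and Lamtor1 anchors there the complex that recruits mTOR. Lamp1, which also marks cytotoxic granules, was read at 168, 179 and 161 CPM in control and at 145, 139 and 148 CPM in IL-33 libraries. Every IL-33 library was below every control library. The mean fell from 169 ± 9.03 to 144 ± 4.28 CPM (SD, n = 3), a log2 fold change of -0.23 (SE 0.0379, Benjamini-Hochberg adjusted p = 2.6e-07 in edgeR's quasi-likelihood fit). Lamp1 lies at chr8:13159161-13175338 on the plus strand (GRCm38), and its promoter is the one with 4 E-boxes shown above.

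Lamp2 was at 144 ± 6.77 CPM in control and 141 ± 0.743 CPM in IL-33 libraries (SD, n = 3), and its 95% interval was -0.105 to 0.047 on the log2 scale. Lamtor1 was at 57.4 ± 1.12 and 55 ± 2.96 CPM, with an interval of -0.166 to 0.044. Neither was called. A change in Lamp2 as large as that estimated for Lamp1 lies outside the interval of Lamp2.

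Of the 8 proteins of the lysosomal lumen, 2 were higher, 2 were lower and 4 were not called. Psap is the precursor of the saposins, which present sphingolipids to their hydrolases, and Hexa is a subunit of the hexosaminidase that degrades gangliosides. Psap was read at 367, 372 and 359 CPM in control and at 323, 310 and 311 CPM in IL-33 libraries. Hexa was read at 51.3, 51.7 and 46.9 CPM in control and at 39.7, 43 and 42.8 CPM in IL-33 libraries. In both genes the groups stood apart. The log2 fold change was -0.22 (SE 0.0301, adjusted p = 2.4e-09) for Psap and -0.26 (SE 0.0589, adjusted p = 0.00029) for Hexa. Psap lies at chr10:60277627-60302597 and Hexa at chr9:59539540-59565109, both on the plus strand (GRCm38).

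The other 6 of these genes are cathepsins, proteases with different cutting rules. Ctsz, a carboxypeptidase, rose from 44.5 ± 0.767 to 50.4 ± 2.25 CPM (SD, n = 3), a log2 fold change of 0.18 (adjusted p = 0.0115, and 0.0998 without IL-33 replicate 1). Ctsb, a cysteine protease, rose from 279 ± 6.88 to 296 ± 7.04 CPM, a log2 fold change of 0.09 (adjusted p = 0.0326), and this call was lost in 7 of 13 alternatives, with the replicate number as a block (adjusted p = 0.0515) and without control replicate 1 (adjusted p = 0.151) among them. Its exons also share 774 bases with the opposite-strand gene Fdft1, which rose from 84.3 to 112 CPM.

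The aspartic protease Ctsd, the cathepsin with the highest level per length, was at 578 ± 18.2 CPM in control and 581 ± 16.3 CPM in IL-33 libraries (SD, n = 3). Ctsa was at 292 ± 4.72 and 291 ± 1.22 CPM, and Ctsc, which activates granule proteases, at 153 ± 3.51 and 157 ± 5.93 CPM. These genes overlapped between groups, with 95% intervals of -0.046 to 0.062 for Ctsd, -0.065 to 0.058 for Ctsa and -0.033 to 0.115 for Ctsc. Ctsl was low, with 99 to 119 counts in control and 87 to 96 counts in IL-33 libraries. Its log2 fold change of -0.31 was the most negative of all members, but its interval of -0.647 to 0.022 included no change and it was not called (adjusted p = 0.167).

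Among the 24 members that were not called, the 95% intervals of 17 lay wholly within 0.2 of no change on the log2 scale. The widest intervals belonged to the members with the fewest counts, Wipi1, Map1lc3a, Ctsl and Tfeb.

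The levels per length covered a wide range. Ctsd stood highest, at 246 ± 6.61 CPM per kb of exon (SD over the 6 libraries), followed by Sqstm1 at 240 ± 17.2, Gabarap at 148 ± 4.08 and Psap at 124 ± 10.5. Over the 6 libraries Ctsd and Sqstm1 do not differ beyond this spread, which also holds the rise of Sqstm1 with IL-33. Their order turned with the length used. Within the control group Ctsd (246 ± 7.74, SD, n = 3) was above Sqstm1 (225 ± 7.19), and within the IL-33 group they were at 247 ± 6.93 and 254 ± 7.66. Ctsa at 61.8 and Lamp1 at 58.5 CPM per kb followed, then Bnip3l at 50 and Ctsb at 47.6, but the order within both pairs differed between the groups. In control Lamp1 (63.3 ± 3.38, SD, n = 3) and Ctsa (61.9 ± 1) did not differ beyond their spread, nor did Ctsb (46.2 ± 1.14) and Bnip3l (43.9 ± 2.39). In IL-33 libraries Ctsa (61.7 ± 0.259) was above Lamp1 (53.8 ± 1.6), and Bnip3l (56.1 ± 0.982) above Ctsb (49 ± 1.16).

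At the other end stood Tfeb at 1.59 ± 0.119, Ctsl at 0.729 ± 0.0977 and Wipi1 at 0.561 ± 0.0771 CPM per kb. Most core autophagy genes lay between, from Atg5 at 15.9 to Atg7 at 3.57 CPM per kb, and neighbours in this order such as Atg13 (15.8 ± 0.542) and Gabarapl1 (15.6 ± 0.447) do not differ beyond their spread. All 36 genes together made up 4330 to 4460 CPM in control and 4470 to 4550 CPM in IL-33 libraries, of which the lysosomal lumen genes held 1740 to 1800 CPM in control and 1710 to 1770 CPM in IL-33 libraries.

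**Figure D4:**
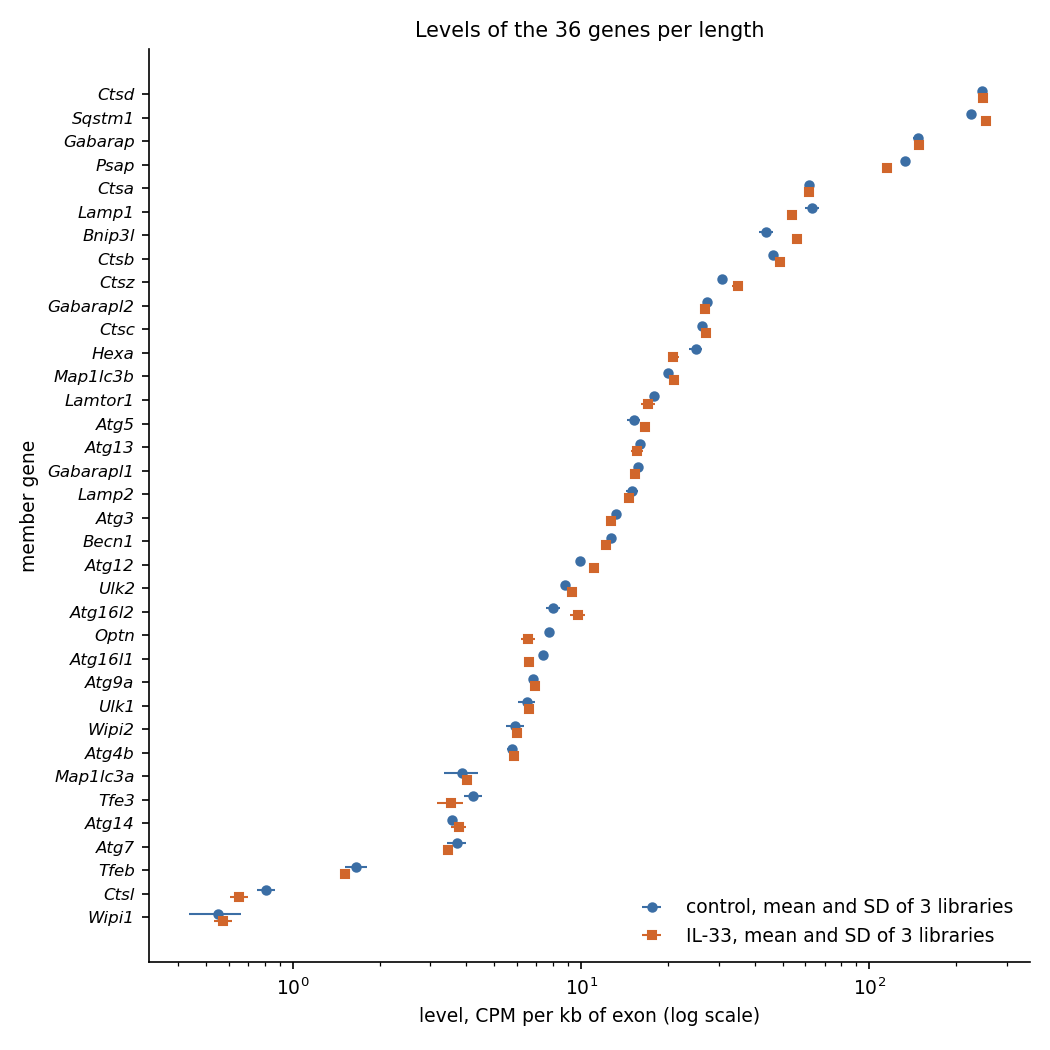
Level of each of the 36 genes in CPM per kb of exon on a log scale, ordered by the mean over the 6 libraries, with circles for control and squares for IL-33 (mean and SD of 3 libraries each). The lysosomal genes Ctsd and Psap, with Sqstm1 and Gabarap, lie above 100 CPM per kb, and Wipi1 and Ctsl lie below 1.

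Another 145 autophagy and lysosome genes were listed by role, and 142 of them were tested. Of these, 23 were higher and 25 were lower, or 33.8% called, against the 27.5% of all genes and the 32.9% of genes in the members' range of level given above. The call counts were 3 higher and 4 lower of 26 further autophagy genes, 2 and 1 of 10 cargo receptors, 5 and 7 of 28 nutrient sensing genes, 8 and 7 of 38 hydrolases, 5 and 4 of 23 membrane and sorting genes and 0 and 2 of 17 genes of the proton pump. The list medians lay between -0.016 and 0.07 on the log2 scale.

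Bnip3, the relative of the member Bnip3l and likewise a receptor on mitochondria, was read at 91.1, 89.8 and 94 CPM in control and at 134, 138 and 139 CPM in IL-33 libraries. The groups were far apart, and the log2 fold change was 0.58 (SE 0.0398, Benjamini-Hochberg adjusted p = 3.6e-24 in edgeR's quasi-likelihood fit), just under the 1.5-fold line. The other receptors of this list with a call were Calcoco1, from 61 to 68.5 CPM, and Retreg1, a receptor for the endoplasmic reticulum, from 40.7 to 36.5 CPM. Pink1, the kinase that marks damaged mitochondria for Optn, was not called, at 42.4 ± 1.64 and 47 ± 2.98 CPM (SD, n = 3, adjusted p = 0.0542).

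Ctsw, a cathepsin of cytotoxic lymphocytes, was read at 361, 361 and 350 CPM in control and at 241, 233 and 241 CPM in IL-33 libraries. It fell by 0.58 on the log2 scale (SE 0.0311, adjusted p = 1.6e-31), further than any member. Smpd1, the acid sphingomyelinase, rose from 93.4 ± 3.02 to 134 ± 3.85 CPM (SD, n = 3, log2 fold change 0.52, adjusted p = 7.8e-21). Ctss, a cathepsin of antigen-presenting cells, fell from 15.3 ± 0.778 to 11.8 ± 0.919 CPM (log2 fold change -0.38, adjusted p = 0.00322). Beside it, the dendritic marker Itgax fell from 52.2 to 55.8 CPM in control to 24.7 to 27.8 CPM in IL-33 libraries, the myeloid marker Fcgr3 rose from 16.2 to 21.7 CPM to 38.2 to 41.2 CPM, and the summed CPM of that marker list overlapped between groups, as given above.

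Of the membrane and sorting genes, Cd63, which marks late endosomes and granules, fell from 17.3 ± 1.27 to 12.3 ± 1.29 CPM (SD, n = 3, log2 fold change -0.49). Grn, the precursor of the lysosomal granulins, fell from 60.9 ± 5.06 to 47.7 ± 4.19 CPM (log2 fold change -0.35). Scarb2, which carries glucocerebrosidase to the lysosome, rose from 127 ± 3.49 to 155 ± 0.93 CPM (log2 fold change 0.29). The 2 called genes of the proton pump were Atp6ap2 and Atp6v1g1, with log2 fold changes of -0.20 and -0.15.

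Rragd, a GTPase that recruits mTOR to the lysosome, was the only gene of these lists past both thresholds, from 2.03 ± 0.234 to 1.18 ± 0.206 CPM (SD, n = 3, log2 fold change -0.78, adjusted p = 0.0356), on 21 to 50 counts per library. Of the further autophagy genes, Vmp1, a membrane protein needed for the growth of the autophagosome, fell from 169 ± 5.66 to 147 ± 2.17 CPM (log2 fold change -0.20), and Snap29, which takes part in its fusion with the lysosome, fell from 36.8 ± 1.19 to 32.6 ± 1.39 CPM. Rb1cc1, the scaffold of the initiation complex, rose from 62.8 ± 3.25 to 70.7 ± 1.13 CPM, beside the members of that complex, of which none was called.

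**Figure D5:**
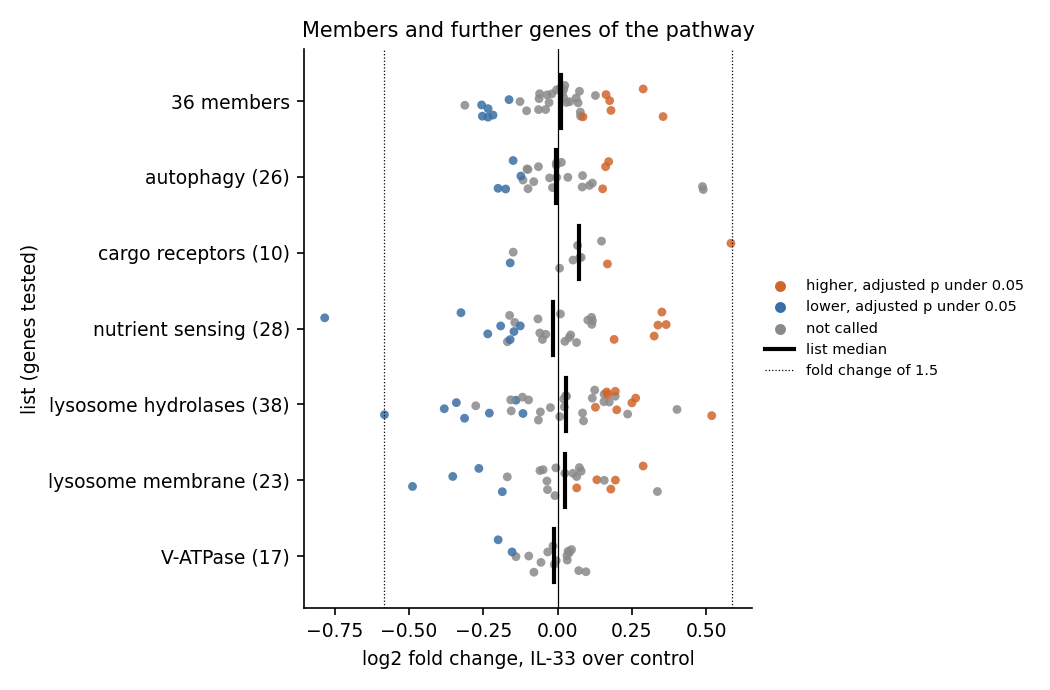
Log2 fold change of IL-33 over control for the 36 members and for each further list, 1 point per gene, orange for called higher, blue for called lower, grey for not called, with a black bar at the list median. Higher and lower calls occur in each list except the proton pump list, whose 2 calls are lower, and the medians lie between -0.016 and 0.07.

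Exons of 14 members overlap those of a gene on the opposite strand, and since the use of strand in counting is not stated, reads in the shared bases cannot be assigned. Among called members, the partner of Lamp1, Grtp1, fell from 12.3 to 8.33 CPM (249 shared bases), that of Sqstm1, Mrnip, was at 3.09 and 2.21 CPM (580 bases), that of Atg16l2, Fchsd2, rose from 96.9 to 110 CPM (25 bases), and that of Hexa, Tmem202, was at 0.225 and 0.278 CPM (255 bases). The partner of Ctsz, Nelfcd, was at 47 and 44.4 CPM (10 bases), that of Optn, 4930551O13Rik, at 0.158 and 0.2 CPM (73 bases), and that of Ctsb is given above. Bnip3l, Psap, Atg12, Atg16l1 and Tfe3 had no such overlap.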

How the data were processed

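The 36 members and all gene lists were chosen with earlier results of these data known. Whole-number counts per gene, one column for each library and not normalized, were deposited by the authors. The authors also deposited 1 column of signal, a mean of size-factor-scaled counts, together with columns of their own comparison (fold changes and p-values), and none of these was used. The submitters' processing notes name Bowtie 0.12.2 and the build mm8. The counting program, the annotation, the use of strand and the treatment of reads that match several copies of a gene were not given in the sources used here. Labels and methods name different library kits.

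Identifiers were matched to GENCODE M21 (GRCm38), which gave positions and exon lengths for 26086 of 26128 genes. Genes were filtered with filterByExpr of edgeR (minimum count 10, minimum total 15), scaled by TMM and tested in edgeR's robust quasi-likelihood fit (two-sided, no covariates). Benjamini-Hochberg adjustment ran over 14671 genes, an adjusted p under 0.05 was called, and 1.5-fold is a log2 fold change of 0.585. CPM use TMM-scaled library sizes, and a floor of 3 counts covers counting error only. Levels per length divide CPM by the union of exons in kb. Values in every library are given for the 8 members with the smallest adjusted p, the Atg8 family and the 2 regulators. Of the further lists, genes past both thresholds with a mean of at least 1 CPM are named, and in lists without one the 3 largest changes past the adjusted p. Pink1, Mitf and the opposite-strand partners were named after their values were seen. The test was checked on simulated counts in which 200 genes were changed by at least 1.5-fold, with the same dispersion for every gene. It recovered 200 and called 11 unchanged genes. Changes as small as those of the members were not simulated. Libraries of one group were not duplicates of each other (chi-square per gene 2.64 to 3.67). Alternatives were DESeq2, limma-voom, other scalings and filters, the replicate block and each library left out in turn. The work used edgeR 4.0.16, DESeq2 1.42.0 and limma 3.58.1 in R 4.3.3.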

Additional observations from a re-analysis of the deposited data

How the results depend on the processing

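No called member changed sign in the 13 alternatives run for each, 7 of the 12 called members kept their call in all of them, and none of the 24 uncalled members became called. The losses were single libraries for Tfe3, Atg16l1, Optn and Ctsz, given with their values in the report, and 7 alternatives for Ctsb. Adding a fold change of 1.5 left 0 members higher and 0 lower. DESeq2, limma-voom and DESeq2's size factors each called the same 6 higher and 6 lower members, but of the further genes DESeq2 called 17 higher and 18 lower, against 23 and 25. With single libraries left out, 4 to 6 members were higher and 5 to 6 lower, and of the further genes 19 to 24 were higher and 16 to 23 lower, the 16 without IL-33 replicate 2. Deviations from the group means correlated at 0.0116, 0.00317 and 0.0107 for equal replicate numbers and at -0.0138 to 0.00287 for unequal numbers. Such small values cannot tell whether the libraries were paired. The replicate block gave 5 members higher and 6 lower, and 20 and 24 further genes. Using the longest transcript as length gave Ctsd 272 CPM per kb in place of 246, and Sqstm1 301, so that Sqstm1 led, and put Ctsb (60.7) above Bnip3l (59.2). Total counts without scaling factors, an alternative chosen after seeing the data, turned Gabarap to -0.0012 and Ctsd to -0.0093 on the log2 scale. Signs of uncalled members also turned with single libraries left out, with log2 ranges of -0.016 to 0.077 for Ulk1, -0.056 to 0.23 for Wipi1, -0.033 to 0.06 for Wipi2, -0.0022 to 0.052 for Atg4b, -0.016 to 0.17 for Map1lc3a, -0.0021 to 0.044 for Gabarap, -0.043 to 0.0089 for Gabarapl2, -0.061 to 0.0063 for Lamp2, -0.011 to 0.0094 for Ctsa and -0.016 to 0.028 for Ctsd. The causes were not tested.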

Other observations

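Pairs of members with related roles were also set against each other within each library, as ratios of counts chosen after the values had been seen. Lamp2 counts per Lamp1 count were 0.817, 0.843 and 0.888 in control and 0.977, 1.01 and 0.947 in IL-33 libraries, and did not overlap. Sqstm1 counts per Optn count were 25, 27.2 and 26.2 in control and 35.7, 36.2 and 32.3 in IL-33 libraries, and did not overlap either. Sqstm1 and Optn had each separated the groups in opposite directions, as had Atg16l2 and Atg16l1, so the separation of both ratios was fixed in advance. Map1lc3b per Gabarap (0.553 ± 0.0231 in control and 0.576 ± 0.0117 in IL-33 libraries, SD, n = 3) and Tfe3 per Tfeb (4.16 ± 0.382 and 3.8 ± 0.4) overlapped. Together with Atg16l2 per Atg16l1 these were 5 ratios, and the exact permutation test (two-sided) gave p = 0.1 for the 3 that did not overlap, the smallest p possible with 3 against 3 libraries, so none can pass 0.05 (0.167 after Benjamini-Hochberg adjustment over the 5).

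Among the nutrient sensing genes, the transcription factors Foxo1 and Foxo3, known to activate autophagy genes, rose from 71.7 ± 0.912 to 92.3 ± 3 CPM and from 71.5 ± 5.16 to 89.6 ± 1.61 CPM (SD, n = 3), with adjusted p of 6.5e-12 and 1.8e-09 by edgeR's quasi-likelihood test. Rheb, the GTPase that activates mTOR, fell from 75.4 ± 3.05 to 64 ± 1.03 CPM (adjusted p = 2.3e-05). Flcn, Fnip1 and Fnip2, whose products act together on the Rag GTPases, fell, with log2 fold changes of -0.19, -0.15 and -0.33. The list held 5 higher and 7 lower calls among 28 genes, with a median of -0.016. Besides Rragd, given above, the other called genes were Slc38a9 (0.34), Sesn1 (0.35), Lamtor4 (0.19), Lamtor2 (-0.16) and Sesn3 (-0.13), and what these changes mean for autophagy was not tested. Mtor itself was at 65.3 ± 0.409 and 63.5 ± 1.24 CPM and was not called (adjusted p = 0.591). Npc2, the lysosomal carrier of cholesterol, rose from 812 ± 26.4 to 974 ± 19.7 CPM (adjusted p = 6.2e-16). These genes were named after their values were seen.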
